A study of Saccharomyces cerevisiae with 10 samples.

Results

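The ribosomal RNA and spacer features are the parts of the yeast 35S ribosomal RNA gene listed in the deposited expression values. They were chosen by name alone, as every feature whose name begins with RDN18, RDN25, RDN37, RDN58, ETS1, ETS2, ITS1 or ITS2. The rule found 10 of the 5824 listed features, and since the annotated repeats 1 and 2 of the gene carried the same value in every culture, the 10 features gave 5 distinct members. These were the external spacer ETS1, the internal spacer ITS2, the mature 18S and 25S rRNAs (RDN18 and RDN25) and the whole precursor (RDN37). No measured value entered the rule, but the group was proposed with earlier results of these cultures known, so the tests below describe the fit over all features and are not independent evidence about these members.

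In yeast, RNA polymerase I transcribes the rDNA on chromosome XII into a 35S precursor, in which spacers flank and separate 3 mature rRNAs. The small subunit processome, a large particle built around the U3 small nucleolar RNA, assembles on the 5' external spacer, and cleavage then releases the spacers, which are degraded by the nuclear exosome with its TRAMP cofactor. Spacer RNA is therefore short-lived, while the mature rRNAs are stable parts of the ribosome and make up most of the RNA of a growing cell.

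RNA was sequenced from haploid BY4741 yeast, with 2 independent cultures for each of 5 strains. The 4 overexpression (OE) strains, each named after its gene, carried that gene on a low-copy centromeric plasmid besides the chromosomal copy. The plasmid gene was under its own promoter and terminator, the plasmid had a URA3 marker, and WT was the control. All cultures grew without treatment in -URA medium with 2% glucose and were collected at an OD600 of 0.4. The strain LSM5-OE carried LSM5, which encodes a subunit of the Lsm rings, TIF35-OE carried TIF35, a subunit of the translation initiation factor eIF3, UTP6-OE carried UTP6, a component of the small subunit processome, and PRP22-OE carried PRP22, a helicase of the spliceosome. Each overexpression strain was compared with WT to ask how the added gene changed the RNA of the cell, and all 4 comparisons share the same 2 WT cultures.

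In the strain named for it, the ratio of the mean to that of WT was 4.0 for LSM5, 2.59 for TIF35, 2.50 for UTP6 and 2.15 for PRP22. STE2, a receptor made by MATa cells, was listed between 419.6 and 610.8 FPKM, and STE3, the receptor of MATalpha cells, between 12.9 and 17.3 FPKM. HIS3 was checked as a gene deleted in BY4741, but it was listed between 147.82 and 246.75 FPKM. Why HIS3 was listed was not tested. FPKM are fragments scaled to the length of the feature and to the size of the library. URA3 had a mean of 928.6 FPKM in WT, so the control also expressed the plasmid marker. From the steps between low values, the depth was estimated at 13453481 to 17347318 fragments per library. The estimated effective fragment length was 309 to 314 bases in 7 libraries and 282 to 284 bases in the other 3, which were TIF35-OE culture 1, UTP6-OE culture 1 and PRP22-OE culture 2. Those 3 libraries also listed RPS30A, a ribosomal protein gene, between 17284 and 20057 FPKM, while it was listed at 0 in the others.

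In the R64 assembly, repeat 1 of the precursor lies on the minus strand of chromosome XII from 451575 to 458432 and is 6858 bases long. In the order of transcription, ETS1-1 covers 457733 to 458432 (700 bases), RDN18-1 covers 455933 to 457732 (1800 bases), ITS2-1 covers 455182 to 455413 (232 bases) and RDN25-1 covers 451786 to 455181 (3396 bases). Repeat 2 runs from 460712 to 467569 and differs from repeat 1 at 0 bases, so reads cannot be assigned to one repeat or the other. No values of ITS1, of the short mature rRNA RDN58 or of the 3' external spacer ETS2 were analysed here. Because RDN37 contains every other member, fragments in the gene belong to more than 1 feature. How they were divided is not given in the sources used here.

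**Figure D1:**
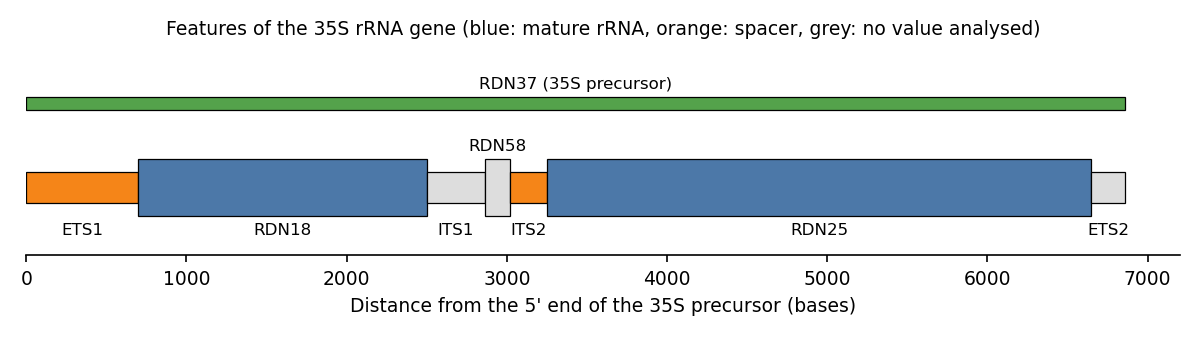
Map of the 35S rRNA gene drawn to scale, with distance from the 5' end of the precursor in bases on the horizontal axis, mature rRNAs in blue, spacers with values in orange and features not analysed here in grey. RDN37 spans all 6858 bases, ETS1 lies at the 5' end and ITS2 is the shortest of the 5 members at 232 bases.

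The sequences below were taken from RefSeq for the R64 assembly and are read 5' to 3' along the precursor, from repeat 1. They show where transcription starts, where a spacer gives way to a mature rRNA and how short ITS2 is. Capitals mark mature rRNA, except in the second sequence, where they mark a run of 10 bases complementary to the U3 RNA.
5' end of ETS1 (chrXII:458373-458432): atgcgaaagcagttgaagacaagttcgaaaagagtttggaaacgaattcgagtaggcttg
Bases 445 to 504 of ETS1 (chrXII:457929-457988): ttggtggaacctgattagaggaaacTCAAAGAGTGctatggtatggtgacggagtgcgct
ETS1 into 18S (chrXII:457703-457762): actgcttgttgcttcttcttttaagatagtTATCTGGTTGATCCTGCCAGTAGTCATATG
18S into ITS1 (chrXII:455903-455962): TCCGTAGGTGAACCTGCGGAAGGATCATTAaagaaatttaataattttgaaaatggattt
RDN58 into ITS2 into 25S (chrXII:455167-455428): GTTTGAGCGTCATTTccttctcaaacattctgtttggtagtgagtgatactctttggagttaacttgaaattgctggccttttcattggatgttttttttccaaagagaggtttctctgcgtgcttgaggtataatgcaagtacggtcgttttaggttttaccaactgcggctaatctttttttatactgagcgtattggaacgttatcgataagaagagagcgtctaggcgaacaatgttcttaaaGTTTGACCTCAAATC
25S into ETS2 (chrXII:451756-451815): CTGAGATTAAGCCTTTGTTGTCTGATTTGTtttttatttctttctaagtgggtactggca

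The capitals in the second sequence are bases 470 to 479 of ETS1, the reverse complement of bases 196 to 205 of SNR17A, one of the genes for U3. A search for such runs of at least 10 bases, with no mismatch and no G-U pair, found 1 more in ETS1, of 12 bases at positions 650 to 661. Of the first 700 bases of 4573 other genes, 41.0% held such a run, so a match of this length is a description and not a mark of ETS1. The GC content was 41.9% in ETS1, 38.8% in ITS2, 44.8% in RDN18 and 47.9% in RDN25.

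The rDNA took a small part of these libraries. The FPKM of ETS1, RDN18, RDN25 and RDN37, each multiplied by its annotated length and summed over 1 repeat, came to between 0.24% of the library in the first WT culture and 0.541% in the first TIF35-OE culture. The other repeat, listed with the same values, is not in this sum. Whether it adds to this part depends on how fragments were divided between the repeats, which is not given. The lengths were not reduced by the fragment length. RDN37 was listed below RDN18 and RDN25 in every culture although it contains both. Because FPKM are scaled to length, that order alone does not show which fragments RDN37 holds. Multiplied by length in kb, RDN37 was still below RDN25 in every culture (304.4 against 1480.7 in the first WT culture). Its value therefore does not hold all fragments of the gene. The same product was below that of RDN18 except in the second UTP6-OE culture (643.7 against 582.7). The levels are of RNA that entered libraries made with the TruSeq RNA kit. Whether poly(A) selection or rRNA depletion was used is not given in the sources used here.

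ETS1, the spacer at the 5' end of the precursor on which the processome assembles, was higher than in WT in all 4 overexpression strains. It was listed at 101.4 and 113.8 FPKM in the 2 WT cultures, and LSM5-OE had 212.7 and 192.7 FPKM. The TIF35-OE cultures had 253.0 and 240.9 FPKM of ETS1, the UTP6-OE cultures 220.0 and 227.2, and the PRP22-OE cultures 153.3 and 147.6. All 8 overexpression cultures lay above both WT cultures, and the PRP22-OE pair lay between WT and the other 3 strains with no overlap. In these bulk cultures, more cells carrying the RNA and more RNA per cell cannot be told apart.

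The mean of ETS1 was 107.6 ± 8.79 FPKM in WT (SD, n = 2), and the ratio of the means to WT was 2.29 in TIF35-OE, 2.08 in UTP6-OE, 1.88 in LSM5-OE and 1.40 in PRP22-OE. On the log2(FPKM + 0.5) scale, with a standard error of 0.07 in each case, ETS1 rose by 1.20 in TIF35-OE (limma, adjusted p = 7.18e-05), by 1.05 in UTP6-OE (adjusted p = 4.56e-05), by 0.91 in LSM5-OE (adjusted p = 0.000539) and by 0.48 in PRP22-OE (adjusted p = 0.00364). Over all 5768 tested features, the share called in either direction at an adjusted p of at most 0.05 was 7.65% in LSM5-OE, 30.3% in TIF35-OE, 29.1% in UTP6-OE and 19.3% in PRP22-OE, and the share called higher was 4.7%, 9.62%, 9.95% and 7.09%. The change of ETS1 was above that of 99.4% of tested features in TIF35-OE, 98.9% in LSM5-OE, 98.8% in UTP6-OE and 96.6% in PRP22-OE. Called higher in all 4 strains, as ETS1 was, were 157 features or 2.72%. Without the 3 libraries of shorter fragments the rise in PRP22-OE was 0.51 with an adjusted p of 0.0825, the only 1 of the 4 ETS1 calls that was lost, and it then rests on a single PRP22-OE culture.

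**Figure D2:**
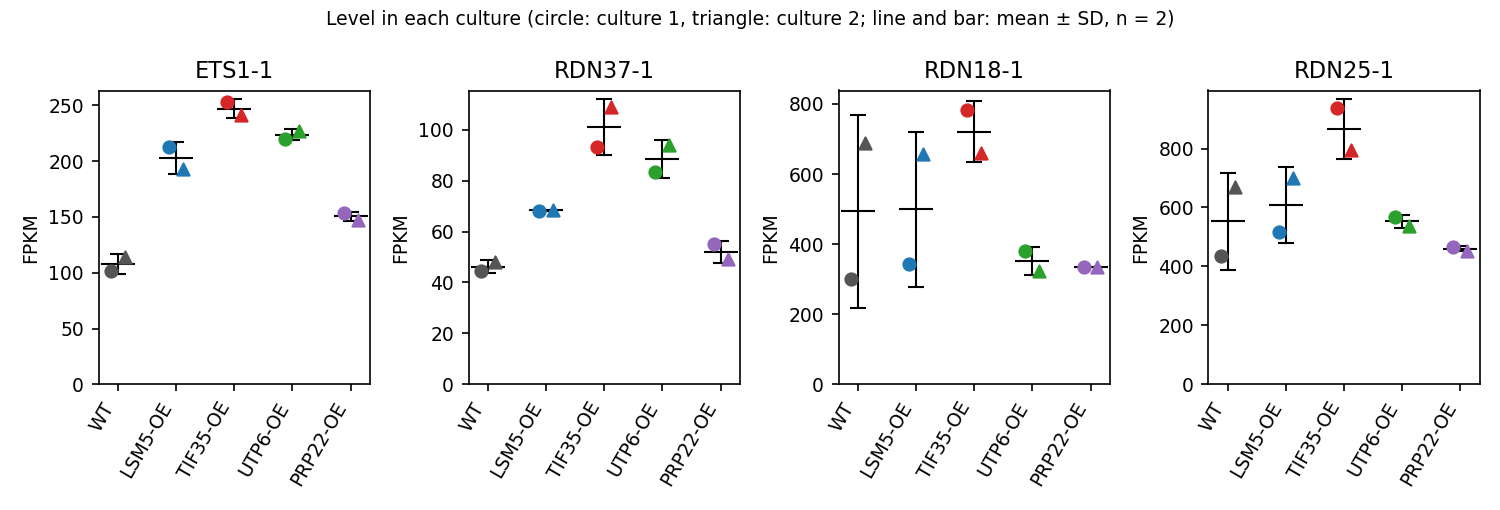
Level of ETS1, RDN37, RDN18 and RDN25 in FPKM on the vertical axes, by strain, with a circle for culture 1, a triangle for culture 2 and a line with bars for the mean ± SD (n = 2). For ETS1 all 8 overexpression cultures lie above 113.8 FPKM, the higher WT culture, while for RDN18 the 2 WT cultures lie at 299.2 and 687.4 FPKM, near both ends of the whole range.

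The order of ETS1 levels was TIF35-OE, UTP6-OE, LSM5-OE, PRP22-OE and WT. The difference between TIF35-OE and UTP6-OE missed the threshold (log2 difference 0.14, 95% interval -0.03 to 0.31, limma adjusted p = 0.309), and so did that between UTP6-OE and LSM5-OE (LSM5-OE minus UTP6-OE -0.14, interval -0.31 to 0.03, adjusted p = 0.204). LSM5-OE was above PRP22-OE by 0.43 (adjusted p = 0.0179), TIF35-OE above it by 0.71 (adjusted p = 0.00125) and UTP6-OE above it by 0.57 (adjusted p = 0.0037). LSM5-OE minus TIF35-OE was -0.29 (adjusted p = 0.0459), a call that was lost in 13 of 21 alternatives. Of the tested features, 6.61% were called between TIF35-OE and UTP6-OE, 22.8% between LSM5-OE and UTP6-OE, 4.82% between LSM5-OE and PRP22-OE, 11.3% between TIF35-OE and PRP22-OE, 10.1% between UTP6-OE and PRP22-OE and 11.4% between LSM5-OE and TIF35-OE. The calls of ETS1 against PRP22-OE were lost without the 3 libraries of shorter fragments. The call against LSM5-OE was also lost without the first LSM5-OE culture (0.36, adjusted p = 0.0804), the first PRP22-OE culture (0.45, adjusted p = 0.0617) or the second (0.40, adjusted p = 0.119).

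RDN37, the feature for the whole precursor, rose in 3 of the 4 overexpression strains. It was listed at 44.4 and 48.2 FPKM in the WT cultures, at 68.0 and 68.5 in the LSM5-OE pair, at 93.3 and 108.8 in TIF35-OE, at 83.2 and 93.9 in UTP6-OE and at 55.1 and 49.1 in PRP22-OE. Every overexpression culture lay above both WT cultures, although the second PRP22-OE culture did so by less than the gap between the WT cultures. The ratio of the means to WT was 2.18 in TIF35-OE, 1.91 in UTP6-OE, 1.48 in LSM5-OE and 1.13 in PRP22-OE.

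On the log2 scale, with a standard error of 0.10, RDN37 rose by 1.12 in TIF35-OE (limma, adjusted p = 0.000273), by 0.93 in UTP6-OE (adjusted p = 0.00039) and by 0.56 in LSM5-OE (adjusted p = 0.0153). In PRP22-OE the difference of RDN37 from WT was 0.17, with an interval from -0.06 to 0.39 and an adjusted p of 0.27. Called higher in at least 3 of the 4 strains, as RDN37 was, were 281 features or 4.87%. The order of the strains was that of ETS1, and among neighbours in it only UTP6-OE and LSM5-OE differed (LSM5-OE minus UTP6-OE -0.37, adjusted p = 0.0305). That call was lost in 5 of 21 alternatives, among them without LSM5-OE culture 1 (-0.36, adjusted p = 0.0957), LSM5-OE culture 2 (-0.37, adjusted p = 0.0889) or UTP6-OE culture 2 (-0.28, adjusted p = 0.164). RDN37 was higher in TIF35-OE than in PRP22-OE by 0.95 (adjusted p = 0.00125) and in UTP6-OE than in PRP22-OE by 0.76 (adjusted p = 0.0037), LSM5-OE minus TIF35-OE was -0.56 (adjusted p = 0.0142), and LSM5-OE minus PRP22-OE was 0.39 (adjusted p = 0.0688). The call against TIF35-OE was lost in 4 of 21 alternatives, among them without LSM5-OE culture 2 (-0.56, adjusted p = 0.0608) or TIF35-OE culture 2 (-0.45, adjusted p = 0.0674). The rise in LSM5-OE lost its call when any 1 of the 4 WT and LSM5-OE cultures was left out, with adjusted p from 0.0567 to 0.116 and a log2 change from 0.50 to 0.62.

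ITS2, the internal spacer between RDN58 and the 25S rRNA, is shorter than the estimated fragments. It was listed at 33.4 FPKM in the first WT culture, at 5.23 FPKM in the first PRP22-OE culture and at 0 in the other 8. A listed 0 of such a short feature can be a failed estimate, so no fold is given. In no comparison with WT did ITS2 pass the test (limma, adjusted p from 0.277 to 0.696), and its values rest on 1 culture per strain at most.

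RDN18, the rRNA of the small subunit, had a wide gap between the cultures of WT and between those of LSM5-OE. It was listed at 299.2 and 687.4 FPKM in the WT cultures and at 342.8 and 655.8 FPKM in the LSM5-OE cultures. The TIF35-OE cultures had 783.0 and 658.9 FPKM of RDN18, the UTP6-OE cultures 379.5 and 323.7, and the PRP22-OE cultures 335.6 and 334.0. The higher WT culture was 2.30 times the lower and the higher LSM5-OE culture 1.91 times the lower. The second WT, the second LSM5-OE and both TIF35-OE cultures were high, and every UTP6-OE and PRP22-OE culture lay between the 2 WT cultures.

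RDN18 passed the test in 0 of 4 strains, also at an unadjusted p under 0.05 in limma. Its log2 difference from WT, with a standard error of 0.40, was 0.66 in TIF35-OE (limma, adjusted p = 0.24), 0.06 in LSM5-OE (adjusted p = 0.949), -0.37 in UTP6-OE (adjusted p = 0.517) and -0.44 in PRP22-OE (adjusted p = 0.487). The interval in LSM5-OE ran from -0.86 to 0.99, so a change of the size that ETS1 had there was not detectable with these cultures. Of the 6 pairs of overexpression strains 0 passed the test for RDN18, and 2 had an unadjusted p under 0.05, TIF35-OE minus PRP22-OE (1.10, adjusted p = 0.115) and TIF35-OE minus UTP6-OE (1.03, adjusted p = 0.182). One WT culture decided the sign: without the second, RDN18 was 0.23 above WT in UTP6-OE and 0.16 above it in PRP22-OE, and without the first it was 0.54 below WT in LSM5-OE (log2 difference -0.54). Without the second LSM5-OE culture the difference in that strain was -0.40. In TIF35-OE the difference of RDN18 was 0.06 without the first WT culture and 1.26 without the second, with an adjusted p of 0.052.

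RDN25, the large rRNA of the large subunit, showed the same 4 cultures at the top. The WT cultures had 436.0 and 670.0 FPKM of RDN25, the LSM5-OE cultures 517.4 and 700.3 and the TIF35-OE cultures 938.2 and 795.0. UTP6-OE was listed at 568.9 and 537.3 FPKM and PRP22-OE at 467.2 and 453.6. Both TIF35-OE cultures lay above every other culture, and the cultures of the other 3 overexpression strains overlapped the WT range. RDN25 was above RDN18 in 9 of 10 cultures on the FPKM scale, and in the second WT culture the ratio of RDN18 to RDN25 was 1.03.

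RDN25 rose in TIF35-OE, where the ratio of the means was 1.57 and the log2 change was 0.68 (standard error 0.21, limma adjusted p = 0.0438). The log2 difference was 0.16 in LSM5-OE (adjusted p = 0.721), 0.03 in UTP6-OE (adjusted p = 0.921) and -0.23 in PRP22-OE (adjusted p = 0.481). TIF35-OE was also higher than PRP22-OE, by 0.91 (adjusted p = 0.0351), the only call of RDN25 among the 6 pairs of overexpression strains, and no neighbours in the order TIF35-OE, LSM5-OE, UTP6-OE, WT and PRP22-OE differed. The call against WT was lost in 12 of 21 alternatives. The change was 0.37 (adjusted p = 0.204) without the first WT culture, 0.56 (adjusted p = 0.192) without the first TIF35-OE culture and 0.80 (adjusted p = 0.0806) without the second. It was 0.99 without the second WT culture, with an adjusted p of 0.0174.

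**Figure D3:**
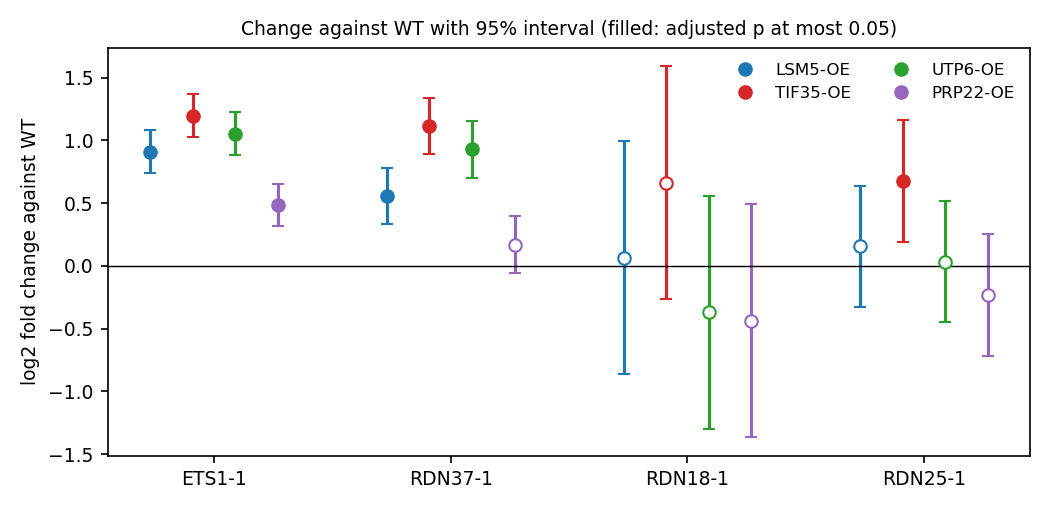
Log2 change against WT on the log2(FPKM + 0.5) scale with its 95% interval, for each member listed above 0 in every culture and each overexpression strain, with filled points where the adjusted p is at most 0.05. The 4 points of ETS1 and 3 of the 4 of RDN37 are filled, against 1 of RDN25 and 0 of RDN18, and the intervals widen from ETS1 (standard error 0.07) to RDN18 (0.40).

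Of the 16 comparisons of these 4 members with WT, 8 passed the test, all of them higher: ETS1 in 4 strains, RDN37 in 3 and RDN25 in 1. Over all tested features the share called higher per strain was 4.7% to 9.95%. The members are not independent, since their sequences overlap and the comparisons share the WT cultures. Taken as independent counts, the estimated fragments give a counting error for each level. How fragments were divided between repeats and nested features is not given, so these errors are approximate. ETS1 had an estimated 616 to 1638 fragments per repeat and culture, a counting error of 2.47% to 4.03%. RDN18 had 6862 to 17055 fragments, a counting error of 0.766% to 1.21%, against a higher culture at 2.30 times the lower in WT.

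The ratio of 2 members within a culture does not depend on the scaling between libraries. It does depend on the part of each RNA that entered the library, which was not measured. Within WT, the higher culture was 1.12 times the lower for ETS1 and 1.54 times the lower for RDN25. The ratio of ETS1 to RDN25 was 0.233 and 0.17 in the WT cultures, 0.411 and 0.275 in LSM5-OE and 0.27 and 0.303 in TIF35-OE. It was 0.387 and 0.423 in UTP6-OE and 0.328 and 0.325 in PRP22-OE. All 8 overexpression cultures lay above both WT cultures, and UTP6-OE had the highest mean, 2.03 times that of WT (geometric means), against 1.69 for LSM5-OE, 1.64 for PRP22-OE and 1.44 for TIF35-OE. TIF35-OE thus had the highest ETS1 level and the lowest ETS1 to RDN25 ratio of the 4 overexpression strains.

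Differences between strains took 80.0% of the variation in the log2 ratio of ETS1 to RDN25, with p = 0.0402 by an exact permutation test over all 945 ways of pairing the 10 cultures and an adjusted p of 0.241 over the 6 ratios computed. It therefore failed the correction. A permutation of 2 cultures against 2 cannot reach the usual threshold, and the ratio of a single strain against WT was not tested. The ratio of ETS1 to RDN18 was 0.339 and 0.166 in WT, 0.621 and 0.294 in LSM5-OE, 0.323 and 0.366 in TIF35-OE, 0.58 and 0.702 in UTP6-OE and 0.457 and 0.442 in PRP22-OE. Here the lower LSM5-OE and the lower TIF35-OE culture fell within the WT range, and the exact permutation p was 0.182 (adjusted p = 0.273).

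The ratio of ETS1 to RDN37 varied least, from 2.22 in the second TIF35-OE culture to 3.13 in the first LSM5-OE culture (exact permutation p = 0.112, adjusted p = 0.273). Its mean was 2.32 for WT, 2.97 for LSM5-OE, 2.89 for PRP22-OE, 2.53 for UTP6-OE and 2.46 for TIF35-OE. The ratio of the mature rRNAs, RDN18 to RDN25, was 0.686 and 1.03 in the WT cultures and 0.603 to 0.937 in the 8 others (exact permutation p = 0.52). The ratios of RDN25 to RDN37 and of RDN18 to RDN37 also missed the threshold, with exact permutation p of 0.137 and 0.289. The culture that was high in RDN18 within WT and within LSM5-OE was also the one with the higher RDN18 to RDN25 ratio.

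**Figure D4:**
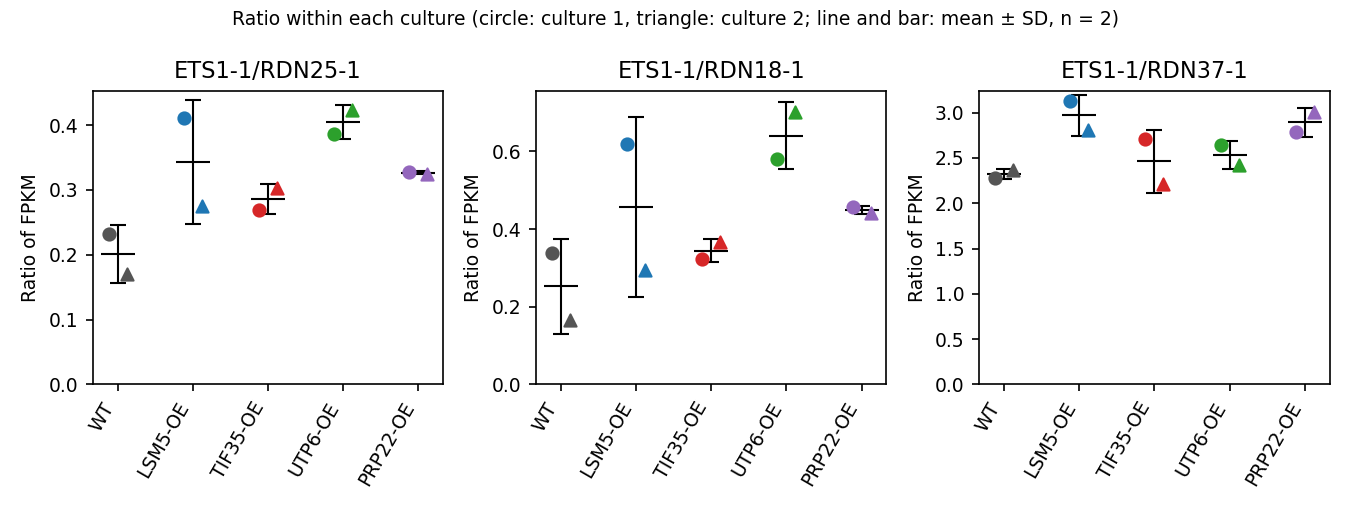
Ratio of FPKM of ETS1 to RDN25, RDN18 and RDN37 within each culture on the vertical axes, by strain, with a circle for culture 1, a triangle for culture 2 and a line with bars for the mean ± SD (n = 2). For ETS1 to RDN25 the 8 overexpression cultures lie from 0.27 to 0.423, above the WT cultures at 0.17 and 0.233.

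**Figure D5:**
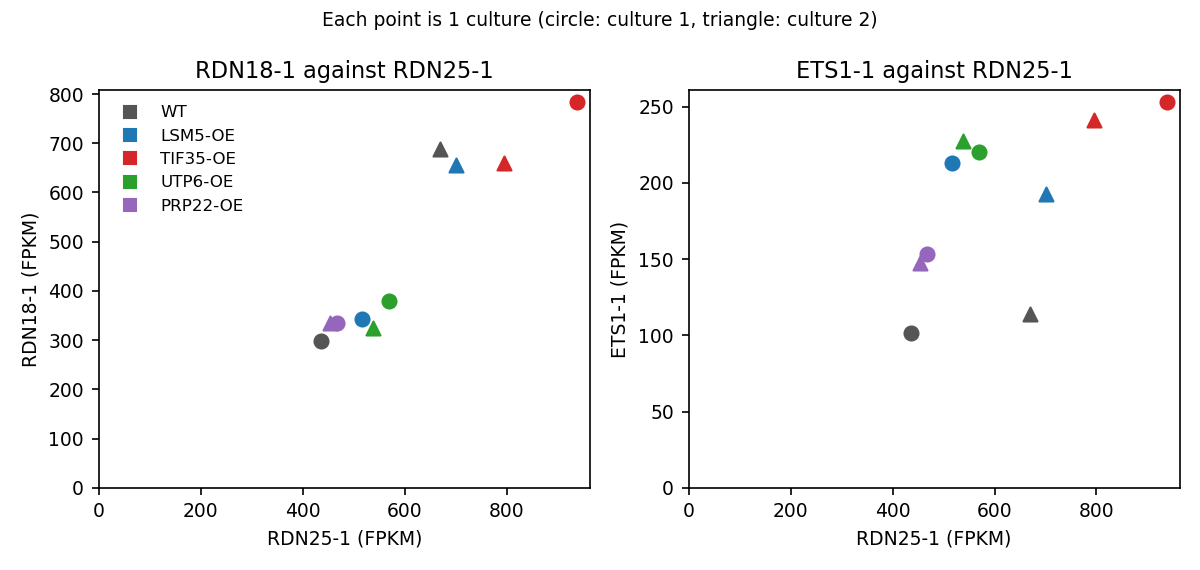
FPKM of RDN18 (left) and ETS1 (right) against FPKM of RDN25, with 1 point per culture, coloured by strain. RDN18 and RDN25 are both high in the second WT and second LSM5-OE cultures, whereas ETS1 in WT stays between 101.4 and 113.8 FPKM while RDN25 goes from 436.0 to 670.0 FPKM.

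Other RNAs that carry no poly(A) tail when mature were read as a measure of such RNA in the libraries. The table lists 28 of them, of which 9 are at least 400 bases long. In those 9 the summed FPKM was 511.3 and 596.8 in WT, 578.4 and 550.6 in LSM5-OE, 604.1 and 660.2 in TIF35-OE, 547.1 and 527.1 in UTP6-OE and 493.9 and 434.1 in PRP22-OE. By limma, 0 of the 9 were called higher in any strain, with 2 higher in TIF35-OE and 0 in the other strains at an unadjusted p under 0.05. At that unadjusted p, 1 was lower in LSM5-OE, 1 in TIF35-OE, 2 in UTP6-OE and 4 in PRP22-OE. The 1 call lower was the small nucleolar RNA snR84 in UTP6-OE (log2 change -0.60, adjusted p = 0.0484). Over all tested features, 4.7% were called higher in LSM5-OE, 9.62% in TIF35-OE, 9.95% in UTP6-OE and 7.09% in PRP22-OE. Called lower in these strains were 2.95%, 20.7%, 19.1% and 12.2%. The share of all features at an unadjusted p under 0.05 was not computed. The median log2 difference of the 9 RNAs from WT was 0.04 in LSM5-OE, 0.20 in TIF35-OE, -0.10 in UTP6-OE and -0.41 in PRP22-OE. TLC1, the telomerase RNA, ranged from 157.9 to 187.7 FPKM. The other 4 of highest mean among all 28 were the small nucleolar RNAs snR83 (179.8 FPKM), snR11 (167.0), snR86 (136.2) and snR5 (114.1). Of these only snR86 is at least 400 bases long. The lengths of snR83, snR11 and snR5 are 306, 258 and 204 bases, and snR5 was listed at 0 in 2 cultures. The part of such RNA in the rDNA values was not tested.

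The proteins that cut and degrade the spacers were followed at the mRNA level in lists taken from general knowledge. Of the 20 genes of the exosome and TRAMP, all tested, 3 were lower than WT in LSM5-OE, 4 were lower in TIF35-OE, 3 were higher in UTP6-OE and 1 was lower in PRP22-OE. The median log2 difference of the list was -0.08, -0.12, 0.01 and -0.03 in these strains, beside -0.01, -0.10, -0.07 and -0.05 over all tested features. Called lower over all features were 2.95%, 20.7%, 19.1% and 12.2%, and called higher were 4.7%, 9.62%, 9.95% and 7.09%. UTP18, a processome protein that brings the exosome to the 5' external spacer, fell by 0.30 on the log2 scale in LSM5-OE (adjusted p = 0.0117), by 0.35 in TIF35-OE (adjusted p = 0.00203) and by 0.29 in PRP22-OE (adjusted p = 0.00521). In UTP6-OE the difference of UTP18 was -0.08 (adjusted p = 0.228). MTR4, the helicase of TRAMP, went from 92.1 and 90.3 FPKM in WT to 78.2 and 79.0 in LSM5-OE and to 78.8 and 80.3 in TIF35-OE, log2 changes of -0.21 and -0.20 (adjusted p = 0.0347 and 0.0173). TRF5, a poly(A) polymerase of TRAMP, fell by 0.34 in LSM5-OE (adjusted p = 0.0393) and by 0.60 in TIF35-OE (adjusted p = 0.00159). Outside the naming rule, and named after their values were seen, the 3 genes higher in UTP6-OE were RRP4 and the exosome cofactors LRP1 and MPP6, by 0.28, 0.34 and 0.42, and the fourth gene lower in TIF35-OE was AIR1, an RNA-binding subunit of TRAMP (log2 change -0.49).

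Of the 20 genes for cleavage at the 5' ETS, ITS1 and 3' ETS, 0 were called in LSM5-OE (limma; 4 were lower at an unadjusted p under 0.05), 6 were lower in TIF35-OE, 2 were higher in UTP6-OE and 2 were lower in PRP22-OE. The median log2 differences were -0.10, -0.15, 0.05 and -0.05, beside -0.01, -0.10, -0.07 and -0.05 over all tested features. Over all features, the share called lower was 2.95% in LSM5-OE, 20.7% in TIF35-OE, 19.1% in UTP6-OE and 12.2% in PRP22-OE, and the share called higher in UTP6-OE was 9.95%. ECM16, the helicase that takes U3 off the precursor, fell by 0.25 in TIF35-OE (adjusted p = 0.0173). UTP23, a processome protein, rose by 0.25 in UTP6-OE (adjusted p = 0.0248), and RCL1, which acts in the cleavages that release the 18S precursor, fell by 0.21 in PRP22-OE. The other calls in UTP6-OE and PRP22-OE were named after their values were seen. They were NOB1, the nuclease that forms the 3' end of 18S (0.18 in UTP6-OE), and POP3, a subunit of RNase P and RNase MRP (-0.40 in PRP22-OE). In TIF35-OE the lowest log2 difference of the list was -0.82, and the genes called there besides ECM16 are not named. Of the 15 genes for ITS2 cleavage and trimming, 0 were called in LSM5-OE (3 were lower at an unadjusted p under 0.05), 4 were lower in TIF35-OE, 3 were higher and 2 lower in UTP6-OE and 1 was lower in PRP22-OE, with medians of -0.06, -0.11, 0.06 and 0.02. REX3, an RNA exonuclease, fell by 0.26 in TIF35-OE, by 0.45 in UTP6-OE and by 0.53 in PRP22-OE (adjusted p = 0.0319, 0.00346 and 0.00228). YTM1, an assembly factor of the large subunit, rose by 0.30 in UTP6-OE, and RRP17, a 5' exonuclease, rose by 0.29 there (adjusted p = 0.00746 and 0.00893). Also named after their values were seen were NOP15, an assembly factor that binds ITS2 (0.31 in UTP6-OE), GRC3, a kinase that acts with the nuclease cutting ITS2 (-0.45 in TIF35-OE), the exonuclease REX2 (-0.22 in TIF35-OE and -0.25 in UTP6-OE) and CIC1 (-0.19 in TIF35-OE).

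Of the 19 genes for RNA polymerase I and its factors at the rDNA, 2 were lower in LSM5-OE, 1 was higher and 9 lower in TIF35-OE, 5 were higher and 5 lower in UTP6-OE and 1 was higher and 3 lower in PRP22-OE. Over all features 4.7%, 9.62%, 9.95% and 7.09% were called higher in these strains and 2.95%, 20.7%, 19.1% and 12.2% lower. The medians were -0.13, -0.13, 0.04 and -0.03, beside -0.01, -0.10, -0.07 and -0.05 over all tested features. RRN7 and RRN6 encode subunits of the core factor that places the polymerase at the 35S promoter. RRN7 had 18.2 and 17.5 FPKM in WT, 10.8 and 11.6 in TIF35-OE, 14.2 and 13.2 in UTP6-OE and 13.5 and 13.3 in PRP22-OE, and all 3 were lower by the test (log2 change -0.66, -0.37 and -0.40, adjusted p = 0.00215, 0.0185 and 0.02). RRN6 also fell in these strains, by 0.57, 0.38 and 0.36 on the log2 scale. RPA135, the second subunit of RNA polymerase I by size, fell by 0.24 in LSM5-OE (adjusted p = 0.0361) and by 0.32 in TIF35-OE (adjusted p = 0.00491). Named after their values were seen, RPA12, another subunit, was the second gene lower in LSM5-OE (-0.75). Higher in UTP6-OE were the polymerase subunits RPA49 (0.21) and RPA34 (0.36), the upstream factor subunit RRN10 (0.55), HMO1 (0.18) and SIR2, the deacetylase that silences rDNA (0.21). RPA12 (-0.51), the initiation factor RRN3 (-0.50) and the topoisomerase TOP1 (-0.26) were lower there besides RRN6 and RRN7. RRN10 was the gene higher in TIF35-OE (0.50), HMO1 the gene higher in PRP22-OE (0.22) and TOP1 the third lower there (-0.33). In TIF35-OE the lowest log2 difference of the list was -0.83. The genes called lower in TIF35-OE besides RRN7, RRN6 and RPA135 are not named.

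Among the 5315 features of at least 400 bases outside the rDNA, the one whose log2 level was most like that of ETS1 over the 10 cultures was PST2 (Pearson r = 0.969), which ranged from 620.5 to 1084 FPKM with a WT mean of 623.3. It was followed by YBR241C, GET4, PST1 and ATG33, all with r = 0.95 or just below. The features most like RDN25 were YBR096W (r = 0.898), UGX2, RVS161, YGR126W and HOS2 (r = 0.882). These values describe the 10 cultures, which share their strains and libraries, and the features were picked as the highest of 5315.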

How the data were processed

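Libraries came from 2 independent cultures of WT and of each overexpression strain, with strain and culture number taken from the labels. According to the methods, the authors aligned paired reads to S288c with HISAT2, counted them with featureCounts, removed low genes with filterByExpr and tested with DESeq2. The submitters' processing notes also name STAR, RSEM, edgeR and limma, without versions. The deposited values are FPKM per culture, and both deposited tables agree in 58240 of 58240 cells, although 1 is described as raw reads. Which program made the FPKM, its handling of nested and repeated features and its settings are not given in the sources used here. Since FPKM are not counts, no count test was used.

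Here log2(FPKM + 0.5) was fitted with limma 3.58.1 in R 4.3.3 (lmFit, eBayes with a trend) over the 5768 features averaging 1 FPKM or more, in 1 fit of all 10 libraries with 5 residual degrees of freedom. Tests were two-sided and adjusted after Benjamini and Hochberg per comparison, with a threshold of 0.05. The script was tested on simulated data. Ratios within a culture were tested by exact permutation of the strains, one-sided in the share of variation between strains. Depth and fragment length were estimated from low FPKM values (at most 4 FPKM, features of 450 to 2500 bases), of which 75.6% to 94.7% lay within 0.15 of a whole fragment. These depths are estimates, and counting errors cover sampling only and take the estimated fragments as independent counts. Gene names, positions and sequences came from the RefSeq annotation of R64. Figures were drawn with matplotlib 3.10.9, and the permutations used numpy 2.4.6 in Python 3.11.15.

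All members were described. From each of the 4 lists the 3 genes with the smallest p over the 4 strains were named, from the other RNAs without a poly(A) tail the 5 of highest mean, and for ETS1 and RDN25 the 5 most alike features. Some other called list genes were named after their values were seen, and those left unnamed were called in TIF35-OE. The members and lists were chosen with earlier results of these data known. Alternatives were 2 other pseudocounts (0.1 and 1), no filter on low values or a stricter one (5 FPKM), rescaling to an equal sum outside the rDNA or by median of ratios, fits restricted to the strains compared, a replicate block, repeats counted once, no trend, each culture left out, and the 3 libraries that list RPS30A above 0 left out. These alternatives were applied to the members, the ratios and the numbers of features called, and not to the list genes. The 2 protein-coding genes annotated inside the 35S gene were not analysed here.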

Additional observations from a re-analysis of the deposited data

Results flagged for a closer look

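For 3 members, the change against WT differed between overexpression strains by the direct comparison of those strains in the limma fit of all cultures. This held for 9 of the 24 comparisons of 4 members over 6 pairs of strains, while 4.82% to 22.8% of all tested features were called in a pair. For ETS1 the log2 difference was 0.71 for TIF35-OE minus PRP22-OE, 0.57 for UTP6-OE minus PRP22-OE, 0.43 for LSM5-OE minus PRP22-OE and -0.29 for LSM5-OE minus TIF35-OE. For RDN37 it was 0.95 for TIF35-OE minus PRP22-OE, 0.76 for UTP6-OE minus PRP22-OE, -0.56 for LSM5-OE minus TIF35-OE and -0.37 for LSM5-OE minus UTP6-OE. For RDN25 it was 0.91 for TIF35-OE minus PRP22-OE. RDN18 gave no such difference. All 9 calls were lost, with adjusted p from 0.0622 to 0.456, once the 3 libraries of shorter fragments were left out, which leaves a single culture in each strain but WT and LSM5-OE.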

How the results depend on the processing

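Of 336 values against WT (16 comparisons under 21 alternatives), 307 kept their direction and their side of the threshold, 19 lost the call and 10 turned sign. Between overexpression strains these numbers were 461, 38 and 4 of 504, with 1 call gained, and all 78 values of the 6 ratios stayed on their side. Both rescalings kept every sign. With the culture number as a replicate block, RDN25 in TIF35-OE (0.68, limma adjusted p = 0.0521) and ETS1 in LSM5-OE against TIF35-OE (-0.29, adjusted p = 0.0707) lost the call, and no other call of a member changed. The labels do not say whether the culture numbers pair the samples. Differences between cultures 1 and 2 correlated over the 10 strain pairs with r from -0.36 to 0.43, and correlations of both signs cannot decide it. Without a trend the same 2 calls were lost (0.68 and -0.29), and with an equal sum outside the rDNA the first (0.72). Fits of only the strains compared lost RDN25 in TIF35-OE (0.68), RDN37 in LSM5-OE (0.56), ETS1 in LSM5-OE against TIF35-OE (-0.29) and PRP22-OE (0.43), and RDN37 in LSM5-OE against TIF35-OE (-0.56) and UTP6-OE (-0.37), and gained RDN18 in TIF35-OE against PRP22-OE (1.10, adjusted p = 0.0309). Without the 3 libraries that list RPS30A above 0, the calls lost against WT were ETS1 in PRP22-OE (0.51), RDN25 in TIF35-OE (0.56) and RDN37 in LSM5-OE (0.56), and RDN25 in UTP6-OE turned to -0.0085. Between strains that setting lost ETS1 in LSM5-OE against TIF35-OE (-0.25) and, against PRP22-OE, in LSM5-OE (0.40), TIF35-OE (0.65) and UTP6-OE (0.57). It also lost RDN25 in TIF35-OE against PRP22-OE (0.77) and RDN37 in LSM5-OE against TIF35-OE (-0.67) and UTP6-OE (-0.46), in TIF35-OE against PRP22-OE (0.97) and in UTP6-OE against PRP22-OE (0.76), and RDN18 in UTP6-OE against PRP22-OE turned to -0.052. With fewer cultures the spread of a lone culture is taken from the other strains. The cause of these changes was not tested.

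Leaving out single cultures, the log2 difference from WT of RDN18 ranged from -0.54 to 0.66 in LSM5-OE, from 0.06 to 1.26 in TIF35-OE, from -0.97 to 0.23 in UTP6-OE and from -1.04 to 0.16 in PRP22-OE. For RDN25 it ranged from -0.15 to 0.46 in LSM5-OE (negative without WT culture 1 or LSM5-OE culture 2), from 0.37 to 0.99 in TIF35-OE, from -0.28 to 0.34 in UTP6-OE (negative without WT culture 1 or UTP6-OE culture 1) and from -0.54 to 0.078 in PRP22-OE (positive without WT culture 2). RDN37 in LSM5-OE ranged from 0.50 to 0.62. The 4 ETS1 calls against WT and those of RDN37 in TIF35-OE and UTP6-OE held with every culture left out. Between strains, ETS1 ranged from -0.36 to -0.21 in LSM5-OE against TIF35-OE and from 0.36 to 0.50 against PRP22-OE. RDN25 in TIF35-OE against PRP22-OE ranged from 0.79 to 1.03, with the call lost without any 1 of the TIF35-OE, PRP22-OE or UTP6-OE cultures. RDN37 ranged from -0.67 to -0.45 in LSM5-OE against TIF35-OE (call lost without LSM5-OE culture 2 or TIF35-OE culture 2) and from -0.46 to -0.28 against UTP6-OE (lost without either LSM5-OE culture or UTP6-OE culture 2). Signs also turned for RDN18 in LSM5-OE against UTP6-OE (-0.032 to 0.90) and UTP6-OE against PRP22-OE (-0.049 to 0.18) and for RDN25 in LSM5-OE against UTP6-OE (-0.10 to 0.34).

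The number of features called over the whole table moved more. It was 441 in LSM5-OE, 1748 in TIF35-OE, 1678 in UTP6-OE and 1114 in PRP22-OE, and 74, 282, 560 and 247 without the 3 libraries. It was 205, 950, 1125 and 718 with an equal sum outside the rDNA, and 66 in LSM5-OE when only its cultures and WT were fitted. With cultures left out it ranged from 82 to 360 in LSM5-OE, from 723 to 2018 in TIF35-OE, from 864 to 1907 in UTP6-OE and from 519 to 1255 in PRP22-OE, lowest without WT culture 1 in each. Called higher were 61.5%, 31.8%, 34.2% and 36.7% of the calls as deposited, 61.9%, 57.1%, 54.4% and 54.1% after rescaling by the median of ratios, and 67.8%, 46.9%, 36.1% and 41.6% with the equal sum. The precision of all values is limited by 2 cultures per strain, and of ITS2 by its length.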
